A study of Mus musculus with 4 samples.

Results

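The genes described here were the TGF-β ligands *Tgfb1* and *Tgfb3*, the receptor chains *Tgfbr1* and *Tgfbr2*, the signal transducers *Smad2*, *Smad3* and *Smad4*, the inhibitory *Smad7*, and the co-repressors *Ski* and *Skil*. They were chosen by name, as the core of this pathway that CD4 T cells express, and all 10 were found among the 24369 genes listed. The libraries came from CD4 T cells of the spleen of wild-type C57BL/6 mice, whose age was not given for these cultures in the sources used here. Naïve CD4 T cells of both groups were activated on plates coated with anti-CD3, together with soluble anti-CD28 and human recombinant IL-2, with no TGF-β1 or other polarizing cytokine added. After 2 days they were transduced with a retrovirus encoding GFP alone (MSCV-IRES-eGFP, EV RV) or Tox and GFP (MSCV-Tox-IRES-eGFP, Tox RV). On day 5 they were restimulated with anti-CD3 (the sources used here differ on whether anti-CD28 was added), and GFP+ CD4 T cells were sorted for RNA-seq, with 2 libraries from 2 mice in each group. Tox was therefore driven by a viral promoter on top of the cells' own gene, and the EV RV cells carried the same vector without it.

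TGF-β is made as a latent dimer and, once released, binds TGFBR2, which recruits and phosphorylates TGFBR1. TGFBR1 in turn phosphorylates SMAD2 and SMAD3, which join SMAD4 and enter the nucleus. SKI and SKIL bind these SMAD complexes and repress their targets, and SMAD7, itself a target of the pathway, shuts off the receptors. In CD4 T cells TGF-β restrains activation and Th1 differentiation and is needed for induced Treg and Th17 cells.

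The libraries held 46989997 to 74548723 expected counts, and every one of the 10 genes passed the filter on low counts. *Tox* was at 11.7 and 5.73 CPM (counts scaled to a common library size with TMM) in EV RV replicates 1 and 2, against 121 and 99.9 CPM in the Tox RV ones, on the side of the labels. With a log2 fold change of 3.68 *Tox* itself had an adjusted p of 0.490 in edgeR's quasi-likelihood test (3.8e-24 in DESeq2), so that test could miss a change far above 2-fold in these libraries. Pairs of values below follow this order of replicates. EV RV replicate 1 stood apart from the other 3 libraries (-53.8 on a first principal component with 58.0% of the variance, against 5.70 to 25.8), so the result of each of the 10 genes is also given without it. It also had the largest share of counts from the pre-ribosomal RNA *Rn45s*, at 24.7%, against 11.97% in EV RV replicate 2 and 10.3% and 7.14% in the Tox RV libraries. A fit without 1 library leaves its group with a single library, which is assumed to vary as the pair of the other group does. The spread within a group is then measured in that pair alone, before edgeR moderates it with the other genes. Of the 8 CD4 T cell markers examined, all were expressed, with a summed level of 1975 to 2914 CPM. The defining markers *Ms4a1* and *Pax5* (B cells), *Ncr1* (NK cells) and *Pf4* (platelets, a rich source of TGF-β1) had 0 counts in all libraries, but other markers of these cells were detected, such as *Cd79a* (13 to 62 counts), *Klrk1* (252 to 1546 counts) and *Itga2b* (52 to 93 counts). The summed levels were 1.16 to 1.62 CPM for B cells, 0.906 to 1.80 CPM for platelets, 0.925 to 1.40 CPM for myeloid cells and 78.2 to 132 CPM for NK cells. In sorted populations such as these, fewer cells of a type and less RNA per cell cannot be told apart.

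None of the 10 genes was called differentially expressed between Tox RV and EV RV cells (edgeR's quasi-likelihood test, adjusted p below 0.05, fold change above 2 and a mean FPKM above 2), and the same rule called 0% of the 14143 genes tested. With DESeq2, 0 of the 10 had an adjusted p below 0.05, against 0.121% of the 18183 genes to which it gave an adjusted p. *Ski* and *Tgfb1* had an unadjusted p below 0.05 in DESeq2, as did 619 genes in all. In edgeR *Ski* alone had an unadjusted p below 0.05 (1 of 10 genes, where 3.62% of all genes tested did). The groups did not overlap for *Ski*, which was lower with Tox RV, and *Smad3*, which was higher, and 36.0% of all genes tested did not overlap. Of the 10 genes, 7 had a negative log2 fold change, as did 49.6% of all genes, and their median was -0.12 against 0.0036 for all genes. The split of all genes depended on scaling, with 35.6% lower under library totals (median of all genes 0.12, of the 10 genes 0.0075) and 60.0% lower with limma on TPM. In EV RV replicate 1 *Tgfb1* and *Smad7* were each more than 2-fold above every other library.

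**Figure D1:**
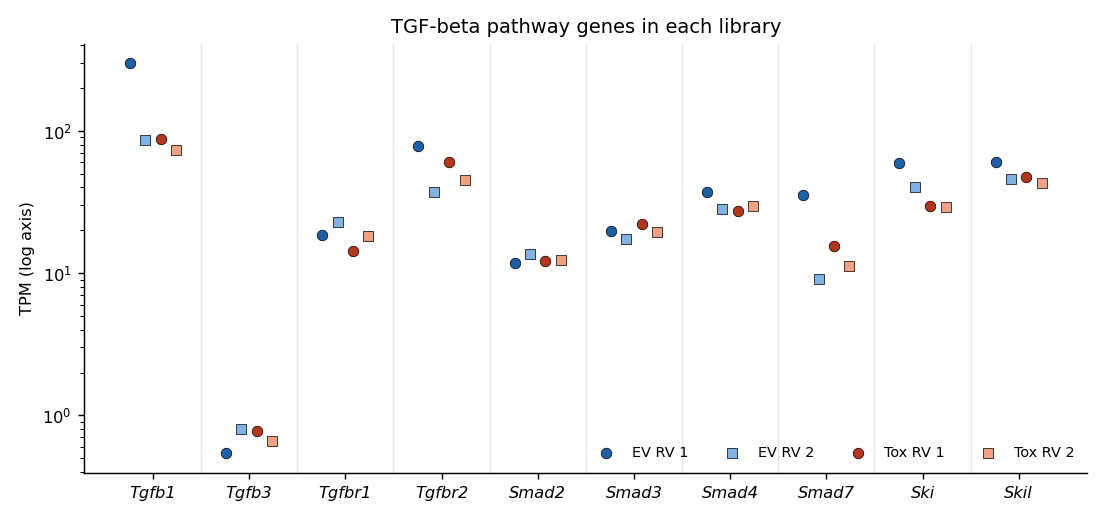
Level of the 10 TGF-β pathway genes in each library, in TPM (transcript abundance per library, corrected for gene length) on a log axis. *Tgfb1* is the most abundant and *Tgfb3* the least in every library, and the EV RV replicate 1 point for *Tgfb1* (297 TPM) and *Smad7* (35.1 TPM) lies well above the other 3.

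Levels of different genes were compared in TPM, which takes gene length into account. *Tgfb1*, the ligand that T cells make, was the most abundant in each of the 4 libraries, at 192 ± 149 TPM in EV RV and 80.6 ± 10.6 TPM in Tox RV cells (SD, n = 2 each). *Tgfb3*, the other ligand, was the least abundant, at 0.670 ± 0.184 and 0.715 ± 0.0778 TPM (SD, n = 2 each). *Tgfb1* exceeded *Tgfb3* by 551-fold in EV RV replicate 1 and by 108-, 114- and 111-fold in EV RV replicate 2 and Tox RV replicates 1 and 2. Next in order of mean level came *Tgfbr2*, the ligand-binding receptor chain (57.7 ± 29.2 and 52.4 ± 10.6 TPM, SD, n = 2 each). The co-repressor *Skil* followed at 53.0 ± 10.2 and 45.1 ± 2.62 TPM (SD, n = 2 each). Its relative *Ski* was at 49.8 ± 13.6 TPM in EV RV and 29.5 ± 0.502 TPM in Tox RV cells (SD, n = 2 each). Over the 4 libraries the ranges of these neighbours overlapped, although within each library *Tgfb1* was above *Tgfbr2* and *Skil* above *Ski*. *Tgfbr2* was above *Skil* in 3 of the 4. *Smad4*, the partner of all receptor-activated SMADs, came next at 32.7 ± 6.10 and 28.7 ± 1.68 TPM (SD, n = 2 each). *Smad3* (18.6 ± 1.61 and 20.9 ± 1.87 TPM) and *Tgfbr1*, the signalling receptor chain (20.7 ± 2.92 and 16.2 ± 2.74 TPM, SD, n = 2 each), were close to each other. *Smad7* (22.1 ± 18.4 and 13.3 ± 3.09 TPM) and *Smad2* (12.7 ± 1.27 and 12.3 ± 0.226 TPM, SD, n = 2 each) came next by the mean over all 4 libraries, but *Tgfbr1* was above *Smad7*, and *Smad7* above *Smad2*, in only 2 of the 4. Between neighbours in this order, the ranges over the 4 libraries were separate only between *Smad4* and *Smad3* and between *Smad2* and *Tgfb3*.

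The co-repressor *Ski* had the lowest p of the 10 genes. It was at 189.6 and 135 CPM with EV RV against 103 and 101 CPM with Tox RV. The groups did not overlap, and the Tox RV libraries were nearly equal. This gave a log2 fold change of -0.67 (standard error 0.21, 95% interval -1.20 to -0.14), that is, *Ski* in Tox RV cells was at 0.629 times the EV RV level. In edgeR the unadjusted p was 0.0213 and, adjusted over 14143 genes, 0.897. DESeq2 gave -0.67 as well (standard error 0.26, unadjusted p = 0.0112, adjusted p = 0.965). Leaving out EV RV replicate 1 gave -0.41 (standard error 0.13). Leaving out EV RV replicate 2 gave -0.89, with replicate 1 as the only EV RV library. *Ski* was lower in Tox RV cells in every fit with a library left out and on every scale examined, including TPM.

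*Skil*, which encodes SnoN and is a well known direct target of TGF-β signalling, overlapped between the groups, unlike *Ski*. It was at 246 and 197 CPM with EV RV against 209 and 192 CPM with Tox RV, and Tox RV replicate 1 lay above EV RV replicate 2. Its log2 fold change was -0.14 (standard error 0.19, 95% interval -0.60 to 0.32, adjusted p = 0.905), and it was 0.02 without EV RV replicate 1. The ratio of *Skil* to *Ski*, taken within each library from TPM, was 1.01 and 1.14 with EV RV against 1.58 and 1.49 with Tox RV. On the log2 scale it was 0.10 ± 0.12 in EV RV and 0.61 ± 0.06 in Tox RV cells (SD, n = 2 each), a difference of 0.51. This was the only one of the 5 ratios examined in which the groups did not overlap. It contains *Ski*, whose own groups did not overlap, as was so for 36.0% of all genes tested. A comparison of 2 libraries with 2 cannot give an exact two-sided permutation p below 0.333, so no p is given for the ratios. Some marker sums separated the same libraries. Those of CD4 T cells, CD8 T cells, B cells, myeloid cells and platelets overlapped between the groups. The summed level of 5 restimulation markers, most of it *Tnfrsf9*, was 1055 and 1044 CPM with EV RV against 1601 and 1309 CPM with Tox RV, with 4 of the 5 higher. The summed NK cell markers, 4 of 5 tested and all 4 lower, were at 132 and 121 CPM against 100.2 and 78.2 CPM, most of it *Eomes*, which T cells also express. The 4 Treg markers, mostly *Il2ra*, which activation induces in all T cells, summed to 1499 and 1723 CPM against 1407 and 1326 CPM, with 2 of the 4 higher. The *Rn45s* share, 24.7% and 11.97% with EV RV against 10.3% and 7.14% with Tox RV, separated the groups too and followed the same order of libraries as *Ski*. The part of these in the difference in *Ski* was not tested.

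**Figure D2:**
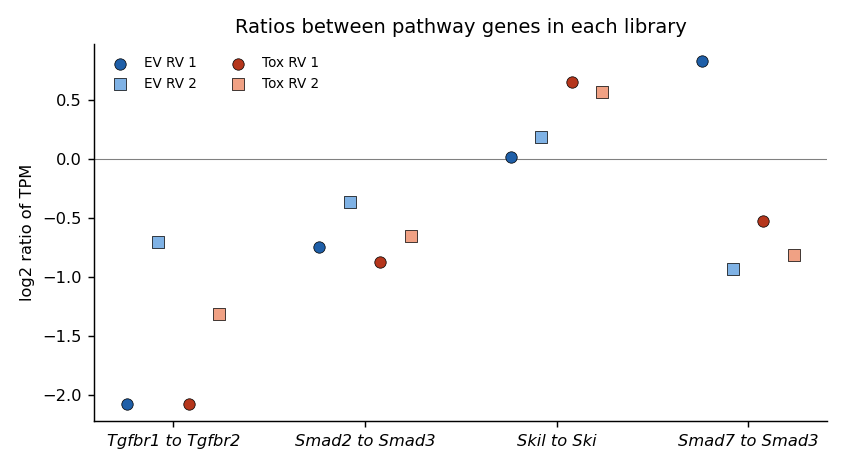
Log2 ratio of TPM between pathway genes in each library. *Skil* to *Ski* is the only ratio shown in which both Tox RV libraries (0.66 and 0.57) lie above both EV RV libraries (0.02 and 0.19).

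The DNA just before the RefSeq start of 3 of these genes is shown, since *Ski* and *Tgfb1* had the most negative log2 fold changes and *Tgfbr2* held a SMAD motif in its only window (so did the second of 2 windows of *Tgfbr1*). RefSeq (GRCm38.p6, the assembly of mm10) gave a window for 5 of the 10 genes. Each is written 5′ to 3′ on the strand of the gene. Capitals mark CAGAC (the core of the SMAD-binding element), GGGCGG (the GC box that SP1 binds) and TGANTCA (the AP-1 site, also recognised by BATF with JUN proteins), on either strand, and no match overlapped another. *Ski* is read from chr4:155222593-155222785 (minus strand), *Tgfb1* from chr7:25686752-25687001 (plus strand) and *Tgfbr2* from chr9:116175364-116175613 (minus strand).
Ski: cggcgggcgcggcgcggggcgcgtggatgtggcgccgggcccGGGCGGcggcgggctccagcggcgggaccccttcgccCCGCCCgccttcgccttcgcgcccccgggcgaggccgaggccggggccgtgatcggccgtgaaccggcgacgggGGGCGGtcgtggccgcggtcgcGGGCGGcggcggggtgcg
Tgfb1: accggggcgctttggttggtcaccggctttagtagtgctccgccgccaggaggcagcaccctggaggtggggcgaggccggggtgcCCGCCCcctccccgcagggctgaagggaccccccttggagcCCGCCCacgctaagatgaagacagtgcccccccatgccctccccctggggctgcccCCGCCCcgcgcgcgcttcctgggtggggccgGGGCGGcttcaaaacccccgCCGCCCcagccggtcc
Tgfbr2: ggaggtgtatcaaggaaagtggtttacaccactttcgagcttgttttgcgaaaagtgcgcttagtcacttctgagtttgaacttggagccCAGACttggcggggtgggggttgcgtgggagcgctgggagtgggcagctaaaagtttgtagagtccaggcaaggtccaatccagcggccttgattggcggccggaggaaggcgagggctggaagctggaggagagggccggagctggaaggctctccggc
The 250 bases before the start held 5 GC boxes in *Ski* (4 of them in the 193 bases shown, which stop where GENCODE places a start further upstream) and 5 in *Tgfb1*. No GC box was in the window of *Tgfbr2*, which held 1 CAGAC. None of the 3 held TGANTCA. Of all 32851 windows of this length, 32.7% held a GC box, 42.2% CAGAC and 6.75% TGANTCA. The GC content was 87.6% for *Ski*, 75.2% for *Tgfb1* and 58.4% for *Tgfbr2*, against a median of 52.4% over all windows. Among the windows not shown, that of *Smad3*, which was higher with Tox RV, held 2 GC boxes (GC content 69.2%). The first window of *Tgfbr1* held 2 GC boxes (74.8%) and its second held 0 (52.8%). A match is a description of the letters and does not show that a factor binds there.

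*Tgfb1* had the most negative log2 fold change of the 10 genes and also among the largest differences between EV RV libraries. It was at 346 and 106 CPM with EV RV against 111 and 92.3 CPM with Tox RV. EV RV replicate 1 was more than 3-fold above each of the other 3 libraries, which lay close together, and the groups overlapped. For *Tgfb1* the log2 fold change was -1.15 (standard error 0.53, 95% interval -2.45 to 0.16, edgeR unadjusted p = 0.0743 and adjusted p = 0.897). DESeq2 gave an unadjusted p of 0.0060 and an adjusted p of 0.722. Without EV RV replicate 1 it was -0.06 (standard error 0.16), and without EV RV replicate 2 it was -1.76 (adjusted p = 0.0278, with the high library as the only EV RV library and the spread from the Tox RV pair), so the EV RV libraries decided its size. The log2 difference between the EV RV libraries, 1.71, was higher than that of 98.3% of the genes tested. *Cd3e*, one of the CD4 T cell markers, was likewise high in EV RV replicate 1 alone, at 219 CPM where the other 3 libraries had 71.6 to 91.2 CPM.

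*Tgfb3* had few counts. Its rounded counts were 44 and 125 with EV RV against 102 and 73 with Tox RV, or 1.04, 1.64, 1.61 and 1.41 CPM. The interval of its log2 fold change, estimated as 0.16 (standard error 0.37, adjusted p = 0.942), was -0.75 to 1.07. The estimate was -0.13 without EV RV replicate 1. Exons of *Tgfb3* share 420 bases with *Gm37804* and *Gm48008* on the other strand, and use of strand in counting is not stated. The exons of the other 9 genes overlap no exon of another gene in GENCODE. All 10 genes are protein-coding in RefSeq (mm10). *Tgfb1* lies on the plus strand of chromosome 7 (25687002 to 25705077) and *Tgfb3* on the minus strand of chromosome 12 (86056743 to 86079041). *Tgfbr1* (47353222 to 47414926, plus strand) and *Ski* (155154075 to 155222535, minus strand) lie on chromosome 4. *Tgfbr2* is on the minus strand of chromosome 9 (116087695 to 116175363) and *Skil* on the plus strand of chromosome 3 (31095058 to 31122923).

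The receptor chains differed between the groups by less than between libraries of a group. *Tgfbr1* was at 62.3 and 80.0 CPM with EV RV against 51.7 and 65.7 CPM with Tox RV. Its log2 fold change was -0.28 (standard error 0.22, 95% interval -0.81 to 0.26, adjusted p = 0.897), and -0.46 (standard error 0.17) without EV RV replicate 1. On the TPM scale the Tox RV values were below the EV RV values (18.6 and 22.8 against 14.2 and 18.1 TPM), whereas in CPM they overlapped. *Tgfbr2* was at 217 and 108 CPM with EV RV against 180.2 and 135 CPM with Tox RV. Both of the latter lay between the EV RV values. Its log2 fold change was -0.04 (standard error 0.35, 95% interval -0.92 to 0.83, adjusted p = 0.986). Without EV RV replicate 1 it turned to 0.54 (standard error 0.21). The ratio of *Tgfbr1* to *Tgfbr2* was 0.238 and 0.613 with EV RV against 0.237 and 0.403 with Tox RV, so *Tgfbr2* was the more abundant chain transcript in every library. EV RV replicate 1 and Tox RV replicate 1 had nearly the same ratio.

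**Figure D3:**
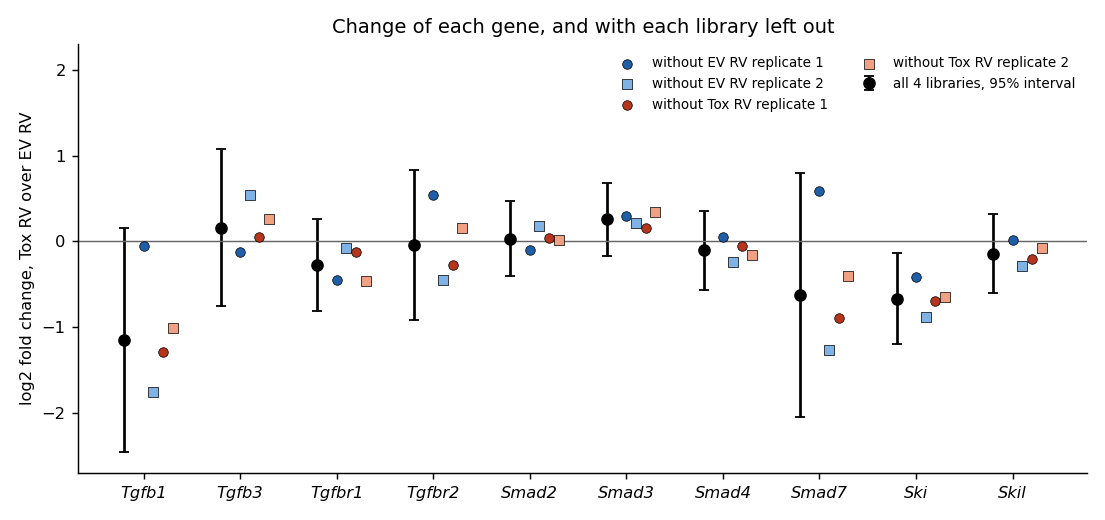
Log2 fold change of Tox RV over EV RV for each gene from edgeR, with its 95% interval (black), and the same with 1 library left out (coloured). The interval lies wholly below 0 for *Ski* (-1.20 to -0.14) and spans 0 for the other 9 genes, and leaving out EV RV replicate 1 moves *Tgfb1* to -0.06 and *Smad7* to 0.59.

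The SMADs that carry the signal had the smallest differences between the EV RV libraries of the 10 genes (0.10 to 0.31 on the log2 scale). *Smad2* was at 60.9 and 73.7 CPM with EV RV against 67.9 and 69.7 CPM with Tox RV. Its log2 fold change was 0.03 (standard error 0.18, 95% interval -0.41 to 0.47, adjusted p = 0.979), and -0.11 without EV RV replicate 1. *Smad4* was at 71.2 and 57.4 CPM with EV RV against 57.4 and 62.3 CPM with Tox RV, a log2 fold change of -0.10 (standard error 0.19, 95% interval -0.57 to 0.36, adjusted p = 0.925), or 0.05 without EV RV replicate 1. *Smad3*, which unlike the common form of SMAD2 binds DNA directly, was at 58.4 and 54.4 CPM with EV RV against 71.5 and 63.0 CPM with Tox RV. The groups were separate in CPM, with Tox RV higher, but not in TPM, where Tox RV replicate 2 (19.60) was just below EV RV replicate 1 (19.74). The log2 fold change of *Smad3* was 0.25 (standard error 0.17, 95% interval -0.17 to 0.68, adjusted p = 0.897), and 0.30 (standard error 0.15) without EV RV replicate 1. The ratio of *Smad2* to *Smad3* was 0.598 and 0.778 with EV RV against 0.545 and 0.635 with Tox RV, with overlapping groups. Chromosome 18 carries *Smad4* (73634790 to 73703791), *Smad7* (75367365 to 75395935) and *Smad2* (76241090 to 76311748) in mm10, while *Smad3* lies on chromosome 9 (63646766 to 63757994).

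*Smad7*, the feedback inhibitor, varied between the EV RV libraries more than any other of the 10 genes. It was at 90.2 and 24.7 CPM with EV RV against 43.3 and 31.1 CPM with Tox RV. Both Tox RV values lay between the EV RV values. For *Smad7* the log2 fold change was -0.63 (standard error 0.58, 95% interval -2.05 to 0.80, adjusted p = 0.897), and its direction turned with the EV RV library left out. It was 0.59 (standard error 0.23) without EV RV replicate 1 and -1.27 without EV RV replicate 2, each time with a single EV RV library. The log2 difference between the EV RV libraries, 1.87, was higher than that of 98.9% of genes. *Smad7* exceeded *Smad3* in EV RV replicate 1 (ratio 1.78) and was below it in EV RV replicate 2 (0.523) and in Tox RV replicates 1 (0.697) and 2 (0.568).

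**Figure D4:**
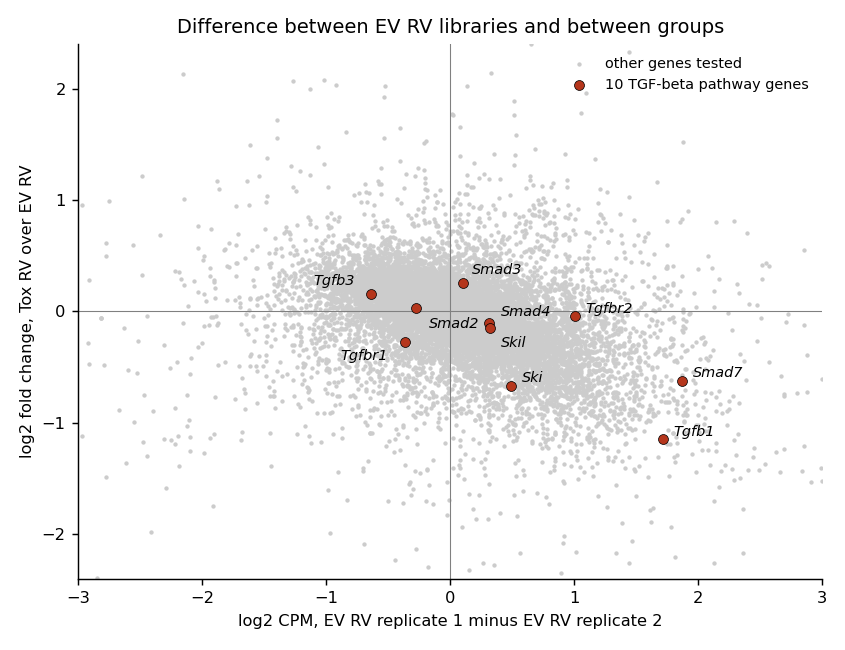
For every gene tested (grey, axes limited to the central range) and the 10 pathway genes (red), the log2 difference in CPM between the EV RV libraries against the log2 fold change between groups. *Smad7* (1.87) and *Tgfb1* (1.71) lie far to the right. Of the 10 pathway genes, only *Ski* (0.49) and *Smad3* (0.10) have a change between groups that exceeds the difference between EV RV libraries. The share of all genes for which this held was not counted.

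For 8 of the 10 genes the EV RV libraries differed from each other by more than the groups did, the exceptions being *Ski* and *Smad3*. The share of all genes for which this held was not counted. Set against the difference between the Tox RV libraries, the difference between the groups was larger for 5 of the 10 genes. The median absolute log2 difference of the 10 genes was 0.43 between the EV RV libraries, 0.19 between the Tox RV libraries and 0.21 between the groups. Over all genes tested these medians were 0.38, 0.17 and 0.21. The 10 genes were thus close to the general spread. RSEM's transcript length of a gene, weighted by the abundance of its transcripts, could vary for the 3 genes with more than 1 transcript in the files. It stayed between 4766 and 4771 bases for *Tgfbr2*, 8762 and 8771 bases for *Smad2*, and 6971 and 6975 bases for *Skil*.

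The wider pathway was described from 7 lists holding 135 measured genes outside the core, of which 120 were tested. Of these, 46 had a positive and 74 a negative log2 fold change with Tox RV (median -0.11), and 0 passed an adjusted p of 0.05 in edgeR or DESeq2. At an unadjusted p below 0.05 there were 0 higher and 3 lower, or 2.5% against 3.62% of all genes. Over all genes tested, 152 were higher and 360 lower at this threshold. The groups did not overlap for 12 higher and 28 lower genes (33.3% against 36.0% of all genes). Without EV RV replicate 1 the medians of the 7 lists ran from -0.56 to 0.09.

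Among activin and BMP ligands, receptors and SMADs, 19 of 25 measured genes were tested, 6 were higher and 13 lower, and the median was -0.12. *Tgfbr3* (betaglycan, a TGF-β co-receptor) was the most abundant, at 142 and 106 CPM with EV RV against 82.1 and 96.7 CPM with Tox RV (log2 fold change -0.47, standard error 0.21, unadjusted p = 0.0715). Tox RV was the lower group with no overlap. The extremes were the activin receptor *Acvr2b* (-1.03, at 8 to 27 counts) and the receptor *Acvrl1* (0.49). In the list on latency and activation of TGF-β, 13 of 17 were tested, 7 higher and 6 lower, with a median of 0.01. *Itgb1*, the integrin β1 chain, was the most abundant (352 and 504 CPM against 309.9 and 348 CPM, log2 fold change -0.38). The extremes were *Thbs1* (-0.94), whose product thrombospondin-1 can release active TGF-β, and the protease gene *Mmp9* (0.31), each below 2 CPM.

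Of 31 regulators of receptors and SMADs, 30 were tested, with 12 higher, 18 lower and a median of -0.07. *Fkbp1a*, whose product FKBP12 binds TGFBR1 and holds it inactive, was the gene with an unadjusted p below 0.05. It was at 132 and 84.8 CPM with EV RV against 64.4 and 60.3 CPM with Tox RV, with no overlap (log2 fold change -0.80, standard error 0.25, unadjusted p = 0.0192, adjusted p = 0.897). The nuclear import receptor gene *Ipo7* was the most abundant (log2 fold change 0.20, standard error 0.22). Of 23 nuclear partners of SMADs, 22 were tested, with 7 higher, 15 lower and a median of -0.11. *Hipk2*, a nuclear kinase that acts with SKI in transcriptional repression, was at 77.6 and 69.3 CPM with EV RV against 39.2 and 45.7 CPM with Tox RV. Its log2 fold change was -0.79 (standard error 0.18, unadjusted p = 0.00504, adjusted p = 0.897; DESeq2 adjusted p = 0.312). The groups did not overlap, and here the EV RV libraries differed little from each other. The co-repressor gene *Ctbp1* was the most abundant of this list (log2 fold change -0.0015, standard error 0.17). In the TGF-β kinase branch all 12 genes were tested, 7 higher and 5 lower, with a median of 0.04. No gene of this list had an unadjusted p below 0.05, and the extremes were *Tab2* (-0.42) and *Map2k6* (0.42). *Rhoa* was the most abundant (-0.12).

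**Figure D5:**
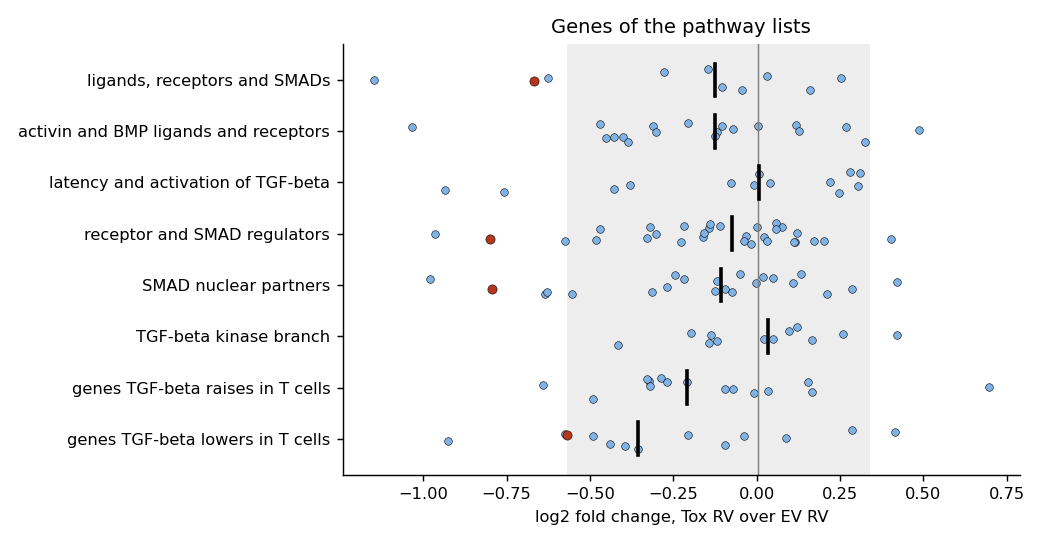
Log2 fold change of every tested gene in the core group and in each list, with the median of each list (black bar), genes at an unadjusted p below 0.05 in red, and the middle 80% of all genes tested (-0.56 to 0.34) shaded in grey. The medians lie between -0.36 and 0.04, and 4 genes are red (*Ski*, *Fkbp1a*, *Hipk2* and *Myc*), all lower in Tox RV cells. Over all genes tested, 152 were higher and 360 lower at this threshold.

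Genes that respond to TGF-β in T cells were examined in both directions. Of the 17 measured genes that TGF-β raises, 15 were tested, with 4 higher, 11 lower and a median of -0.21. None had an unadjusted p below 0.05, and the median was 0.09 (9 higher, 6 lower) without EV RV replicate 1. *Junb* was the most abundant (log2 fold change 0.17, standard error 0.18), and the lowest was *Nt5e*, which encodes CD73 (-0.64). *Foxp3*, which TGF-β induces in Treg cells, was at 45 to 65 counts in all libraries. Of the 14 genes that TGF-β lowers, 13 were tested, with 3 higher, 10 lower and a median of -0.36 (1 higher, 12 lower and -0.56 without EV RV replicate 1). *Myc* was at 226 and 166 CPM with EV RV against 147 and 117 CPM with Tox RV (log2 fold change -0.57, standard error 0.23, unadjusted p = 0.0472, adjusted p = 0.897). *Gzmb*, the most abundant, ranged from 329 to 1219 CPM within the EV RV group (log2 fold change -0.04, standard error 0.60).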

How the data were processed

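One deposited table for each library was used. After fastqc, the authors ran RSEM with bowtie on transcripts of mm10, library by library. Its expected counts were deposited without normalization. The deposited TPM and FPKM are corrected for length and library size, and TPM have the same sum in each library. The deposited lengths exceed the effective lengths by 149 bases, and whether mates were counted together is not given in the sources used here. A series-wide table named TPM was not used, because its columns do not have that sum.

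Expected counts were rounded and fitted in R 4.3.3 with edgeR 4.0.16 (filterByExpr, minimum count 10, TMM, glmQLFit and glmQLFTest, no block), with Benjamini-Hochberg adjustment over the 14143 genes tested. The common biological coefficient of variation was 0.232. Standard errors come from the log2 fold change and the F statistic, and 95% intervals from its degrees of freedom. DESeq2 1.42.0, the study's tool, and limma 3.58.1 on log2(TPM + 1) or log2(TPM + 0.1) were alternatives. The tools were tested on simulated data in which no library was made to stand apart as EV RV replicate 1 did. Other alternatives were scaling, the low-count filter, thresholds, the replicate block and each library left out. Locations and promoter windows came from RefSeq and overlaps from GENCODE M21, both GRCm38.

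The genes and lists were chosen with earlier results of these data known. In each list the genes named were those with an unadjusted p below 0.05, or otherwise the highest and lowest log2 fold change, and the most abundant; 1 gene that this rule names is not reported here. *Cd3e*, *Tnfrsf9* and *Foxp3* were named after their values were seen, as were *Eomes*, *Il2ra*, *Rn45s*, *Cd79a*, *Klrk1* and *Itga2b*.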

Additional observations from a re-analysis of the deposited data

How the results depend on the processing

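The number of genes called was 0 in the main test. It was 21 with DESeq2, 20 without the low-count filter, 15 with the replicate block and 1 to 290 with each library left out (290 without EV RV replicate 2). The number of the 10 pathway genes called was 0 in every setting that kept all 4 libraries. Calls are not read from fits with 1 library left out, where a group held a single library. The samples share replicate numbers, but the sources used here do not say that a number marks one mouse. Deviations from the group means correlated at 0.302 between same-numbered libraries, with only 2 pairs. Genes of the pathway lists at an unadjusted p below 0.05 numbered 3, against 8 with DESeq2, 11 without the filter, 15 with the replicate block and 4 to 43 with each library left out (13 without EV RV replicate 1 and 43 without EV RV replicate 2). Over all genes, those at this threshold numbered 512 of 14143 in the main test and 619 of 18183 with DESeq2. They numbered 996 of 19286 without the filter and 1232 of 14143 with the replicate block. Over all genes the number also rose without either EV RV library, and it fell without either Tox RV library. Whether the pathway lists changed more than other genes in these settings was not tested. Library totals in place of TMM moved the median of all genes to 0.12 and turned *Tgfbr2* to 0.11 and *Smad4* to 0.029. The replicate block turned *Tgfbr2* to 0.027. *Smad2* turned to -0.0074 with totals without the pre-ribosomal RNA *Rn45s* and to -0.041 and -0.044 in the limma fits. With each library left out, the log2 fold change ranged from -0.13 to 0.54 for *Tgfb3*, -0.45 to 0.54 for *Tgfbr2*, -0.11 to 0.18 for *Smad2*, -0.24 to 0.052 for *Smad4*, -1.27 to 0.59 for *Smad7* and -0.29 to 0.018 for *Skil*. *Tgfb1*, *Tgfbr1*, *Smad3* and *Ski* kept their direction in every fit. The cause of these shifts was not tested. With 2 libraries per group the main test did not call *Tox* itself (adjusted p = 0.490, edgeR), so 0 calls do not show that the genes were alike.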
